A study of Rattus norvegicus with 6 samples.

Results

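Dietary vitamin B12 reaches the blood through the ileum, and 6 genes of that route were followed through single nuclei of rat ileum. They were Cubn, Amn, Lrp2, Dab2, Cd320 and Tcn2, 6 of the 28282 genes in the count tables, and all 6 were present in every table. The list was chosen by function, from the receptor outwards, but with earlier results on the levels of these genes by cell class and in SAP against CON known. The values by class and by group are therefore given as a description, and the fitted p-values beside them support nothing on their own.

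Single-nucleus RNA sequencing was run on the ileum of 6 male wild-type Sprague-Dawley rats aged 6 weeks, kept for 7 days before the experiment. In 3 of them severe acute pancreatitis (SAP) was produced by infusing 3% sodium taurocholate, a bile salt, against the flow of the pancreatic duct at 0.1 mL per 100 g of body weight and 0.1 mL per min, with the duct clamped for 5 min. The other 3 rats, the control group (CON), had a sham laparotomy with no infusion, and all tissue was taken at 24 h. Each rat gave 1 library, and the sources used here give neither the length of ileum sampled nor its distance from the caecum.

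B12 from food is bound in the gut by intrinsic factor, a carrier protein secreted in the rat by the stomach. Cubilin, encoded by Cubn, is a large peripheral protein of the brush border that binds the complex, and amnionless, encoded by Amn, anchors it in the membrane and brings it to the cell surface, so that the pair is known as the cubam receptor. Megalin, the product of Lrp2, is an endocytic receptor that works with cubilin in kidney proximal tubule and yolk sac, and Dab2 encodes an adaptor that links receptors of this kind to clathrin. Inside the cell the vitamin is freed in the lysosome and leaves for the blood on transcobalamin, encoded by Tcn2, which other tissues then take up through the receptor encoded by Cd320. Loss of CUBN or AMN in people causes inherited B12 malabsorption, known as Imerslund-Grasbeck syndrome.

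The start of the 2 receptor genes is shown first, since their levels carry most of what follows. RefSeq promoters, on the build GRCr8, matched 5 of the 6 genes. The 250 bases before the annotated start of Cubn lie on the minus strand at chr17:81501695-81501944, and those of Amn on the plus strand at chr6:136132317-136132566. They are printed 5′ to 3′ along each gene, and capitals mark the letters CAAAG, the core of the motif of HNF4, a factor of enterocyte and liver genes.
Cubn: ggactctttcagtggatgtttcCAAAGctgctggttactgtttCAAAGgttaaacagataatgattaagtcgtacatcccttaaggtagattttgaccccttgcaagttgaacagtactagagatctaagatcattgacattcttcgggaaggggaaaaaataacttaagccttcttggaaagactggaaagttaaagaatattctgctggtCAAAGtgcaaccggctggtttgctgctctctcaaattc
Amn: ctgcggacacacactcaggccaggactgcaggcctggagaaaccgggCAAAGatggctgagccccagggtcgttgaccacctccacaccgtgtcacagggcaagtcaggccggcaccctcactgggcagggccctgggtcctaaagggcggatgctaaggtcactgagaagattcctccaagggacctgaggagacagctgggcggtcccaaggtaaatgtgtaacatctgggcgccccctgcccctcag

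The window of Cubn held CAAAG at 228, 207 and 38 bases before the start, and that of Amn held it at 203 bases. Both strands were searched, so CTTTG counted too, and 48.2% of 33469 RefSeq promoter windows of the same length held the motif. The GATA letters AGATAA, found in 10.3% of windows, occurred 1 time before Cubn, at 195 bases. The HNF1 half-site GTTAA, found in 22.2% of windows, occurred 2 times before Cubn, at 202 and 59 bases, and the match at 202 bases lay directly after a CAAAG. The CDX letters TTTAT, found in 39.3% of windows, occurred in neither window, and Amn held neither the GATA nor the HNF1 letters. The motifs were chosen after the sequences were seen, and GC content was 40% for Cubn against 62.8% for Amn. Each match is a string of letters and describes the window only.

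Of 90461 barcodes, 40970 passed at least 1200 UMIs (unique molecular identifiers, 1 per captured transcript), at least 500 genes and at most 5% mitochondrial UMIs. The libraries held 3189 to 9246 passing nuclei and 5549260 to 28771508 UMIs, with a median of 1516 to 1889.5 UMIs per nucleus. CON_2 and SAP_1 stood apart, since they alone held barcodes with fewer than 1000 UMIs, and the passing share was 26.2% and 12.2%, against 76.4% to 79.9% in the other 4. Clustering gave 25 clusters, from which 16 classes were named by their markers and 4 clusters stayed unnamed. The 6 genes were left out of the genes used to cluster. Enterocyte-like nuclei, 8412 in 3 clusters, had among their leading genes brush border genes such as Si (sucrase-isomaltase) and Slc5a12, Apoa4 and Ada of the villus tip, and Fabp6 and Slc51b of ileal bile acid handling. Ly6m and Isg15 were also among the leading genes of the cluster with Apoa4, and Reg3g, Reg3b and Guca2a among those of the cluster with Fabp6. They made up 13.7%, 16.1% and 16.2% of all nuclei in CON_1 to CON_3, against 29.5%, 43.4% and 15.9% in SAP_1 to SAP_3.

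Cubn was highest in enterocyte-like nuclei, which held 60.5% of its 2668 UMIs and 20.5% of the nuclei. Levels are given as CPM, the UMIs of a gene scaled to the same total of UMIs for the class in every library, and are not compared between genes, since they were not scaled to gene length. In enterocyte-like nuclei Cubn stood at 20.02, 4.27 and 87.6 CPM in CON_1 to CON_3 and at 164, 90.1 and 86.0 CPM in SAP_1 to SAP_3, from 1615 UMIs. The low values were those of CON_1 and CON_2, while CON_3 lay among the SAP libraries, so the groups overlapped. Over the 6 libraries the class had a mean of 75.3 ± 57.3 CPM (SD, n = 6), and the other 14 classes with at least 10 nuclei in every library had means of 9.80 to 20.5 CPM. Enterocyte-like nuclei were the highest of these 15 classes in 5 of 6 libraries, and in CON_2 SMC-like nuclei stood higher, at 7.26 CPM from 2 UMIs. Below them the order ran from fibroblast-like to stem/TA-like nuclei (TA, transit-amplifying), and all 14 pairs of neighbours in the order overlapped in range. Outside these 15 classes, unnamed cluster 24 (221 nuclei, 9 of them in SAP_1) had 50.1 ± 22.4 CPM (SD, n = 6). Its expression was closest to the B-like class. Unnamed cluster 15 (266 nuclei, 6 of them in SAP_1) had 26.6 ± 32.3 CPM.

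Amn had the same leading class, with enterocyte-like nuclei highest of the 15 classes in 6 of 6 libraries and holding 58.6% of 8036 UMIs. Its level there was 158, 63.5 and 217 CPM in CON_1 to CON_3 and 228, 299 and 199 CPM in SAP_1 to SAP_3. CON_2 was the lowest and SAP_2 the highest, and CON_3 lay above SAP_3. The mean was 194 ± 78.7 CPM (SD, n = 6) against 35.7 to 72.2 CPM in the other 14 of these classes. Unnamed cluster 3, 4022 nuclei whose expression was closest to the enterocyte-like class, came next among them, with 72.2 ± 67.1 CPM. Outside the 15 classes, mesothelial-like nuclei had 79.3 ± 85.2 CPM and fat-like nuclei 30.3 ± 48.7 CPM. Libraries held as few as 3 mesothelial-like and 1 fat-like nuclei, and the mesothelial-like values ran from 0 to 201 CPM.

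Tcn2, the blood carrier, was also led by enterocyte-like nuclei, in 5 of 6 libraries among the 15 classes, with a smaller share of its UMIs there, 47.5% of 4719. It stood at 94.1, 35.8 and 106 CPM in CON_1 to CON_3 and at 126, 114 and 110 CPM in SAP_1 to SAP_3. Every SAP library was above every CON library in CPM, but the groups overlapped after TMM scaling, with CON_1 at 121 and SAP_3 at 100 scaled CPM. The other 14 of these classes had means of 25.3 to 54.5 CPM, cluster 3 the highest. Outside the 15 classes, neutrophil-like nuclei had 64.6 ± 65.4 CPM and mesothelial-like nuclei 4.03 ± 9.88 CPM (SD, n = 6). Libraries held as few as 5 neutrophil-like and 3 mesothelial-like nuclei.

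Dab2 was low in enterocyte-like nuclei, at 0.466, 1.07 and 3.97 CPM in CON_1 to CON_3 and 1.75, 1.35 and 6.96 CPM in SAP_1 to SAP_3, from 56 of its 769 UMIs. Among the 15 classes it was highest in endothelial-like nuclei, with a mean of 62.2 ± 28.2 CPM (SD, n = 6), and in macrophage-like nuclei, with 56.2 ± 35.2 CPM. SMC-like nuclei (smooth muscle cells) followed with 26.4 ± 9.88 CPM and fibroblast-like nuclei with 24.4 ± 11.3 CPM. The ranges of these neighbours overlapped. Outside the 15 classes, the 127 neutrophil-like nuclei had 80.2 ± 107 CPM, in libraries with as few as 5 nuclei. The 159 mesothelial-like nuclei had 76.1 ± 87.7 CPM from 64 UMIs, in libraries with as few as 3 nuclei. Of the adaptor's UMIs 7.28% thus came from the class that led the cubam genes.

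Lrp2 was rare throughout, with 385 UMIs in all nuclei and 58 in the enterocyte-like class. Its level in that class was 0.931, 2.67 and 4.50 CPM in CON_1 to CON_3 and 0, 2.40 and 4.46 CPM in SAP_1 to SAP_3. T-like nuclei held more of its UMIs, 74. The highest mean among the 15 classes, 18.8 CPM in NAC-like nuclei (neuron-associated cells), rested on 9 UMIs. Outside the 15 classes, mesothelial-like nuclei had 87.5 ± 156 CPM (SD, n = 6) from 22 UMIs of Lrp2, 15 of them in CON_1. The library values ran from 0 to 402 CPM, in libraries with as few as 3 nuclei, and the highest was not that of CON_1. Unnamed cluster 24 had 23.0 ± 14.3 CPM. At this depth the classes of at least 10 nuclei in every library were not ordered for Lrp2, given its few UMIs. All 14 pairs of neighbours overlapped in range, as they did for the other genes.

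Cd320, the receptor for transcobalamin, had its lowest mean among the 15 classes in the enterocyte-like class, with 7.14 ± 3.30 CPM (SD, n = 6). Macrophage-like nuclei with 7.65 CPM and T-like nuclei with 8.04 CPM lay close, and the ranges overlapped. Outside the 15 classes, means were lower in neutrophil-like (4.17 CPM), fat-like (5.26 CPM) and mesothelial-like nuclei (5.98 CPM). The enterocyte-like values were 12.6, 8.004 and 3.17 CPM in CON_1 to CON_3 and 8.19, 4.50 and 6.40 CPM in SAP_1 to SAP_3. Stem/TA-like nuclei, the dividing cells of the crypt, held the most UMIs, 407 of 1366, at 37.8, 14.02 and 13.0 CPM in CON and 28.1, 15.7 and 13.5 CPM in SAP. Each of these was above the enterocyte-like level of the same library. Endothelial-like nuclei had a higher mean, 40.9 ± 32.0 CPM, from 40 UMIs and with no UMI in CON_2.

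**Figure D1:**
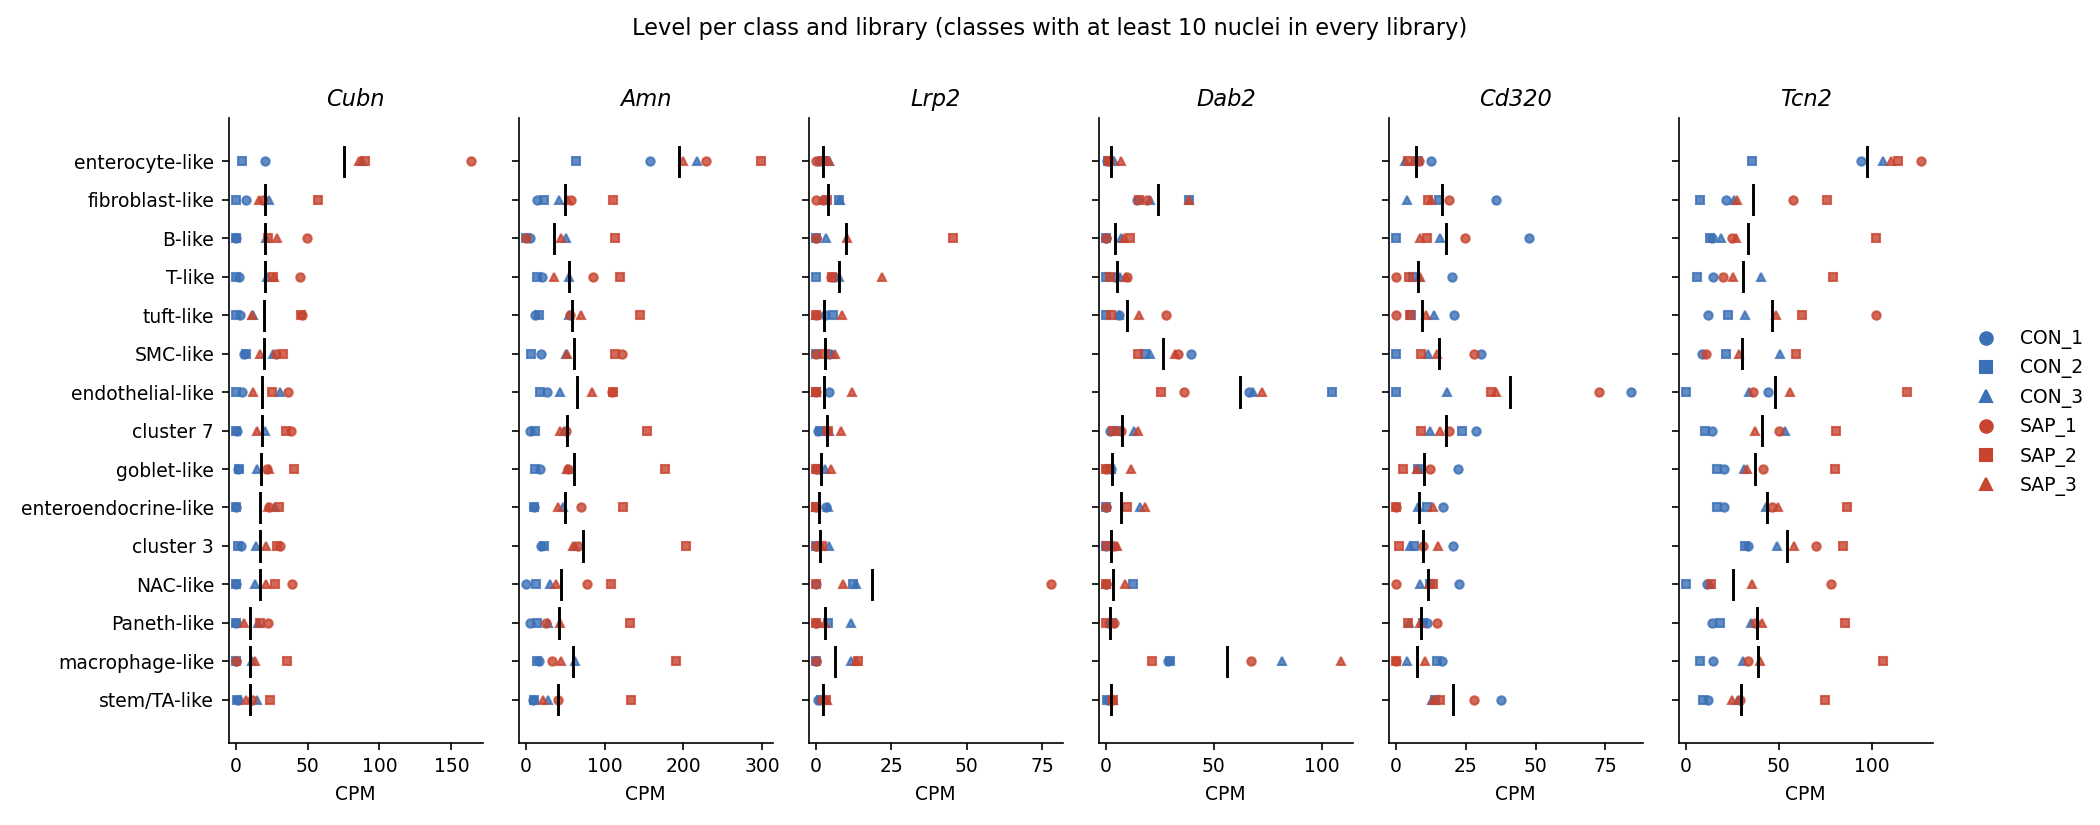
CPM of the 6 genes (x axes, 1 panel per gene with its own scale) in the 15 classes with at least 10 nuclei in every library (y axis, ordered by the mean of Cubn). Each point is a library, blue for CON and red for SAP, and black bars are means over the 6 libraries. Cubn, Amn and Tcn2 peak in enterocyte-like nuclei, with means of 75.3, 194 and 97.6 CPM, and Dab2 in endothelial-like and macrophage-like nuclei, with 62.2 and 56.2 CPM.

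A UMI of Cubn in a nucleus need not mean that the cell expressed the gene, because free RNA in the suspension is captured too. T-like and B-like nuclei, lymphocytes that do not take up intrinsic factor, were read as the background. Cubn stood there at 2.099, 0 and 21.4 CPM in CON_1 to CON_3 and at 45.7, 25.5 and 27.5 CPM in SAP_1 to SAP_3. The order of the libraries was close to that of the enterocyte-like nuclei, with CON_1 and CON_2 low and SAP_1 highest. The enterocyte-like level was 9.54 times the lymphocyte level in CON_1, 4.08 times in CON_3 and 3.58, 3.53 and 3.13 times in SAP_1 to SAP_3, and CON_2 had no Cubn UMI in 301 lymphocyte nuclei. For Amn the 3 CON libraries had ratios of 8.24, 5.06 and 4.06, and the 3 SAP libraries ratios of 3.23, 2.51 and 4.94.

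Nuclei thinned to 1200 UMIs each showed the same picture, and no nucleus was too shallow for this. A Cubn UMI was found in 2.45%, 0.697% and 7.94% of enterocyte-like nuclei in CON and in 14.5%, 10.7% and 8.85% in SAP. Without thinning the shares were 4.59%, 0.697% and 14.6% in CON and 19.3%, 17.8% and 15.3% in SAP, and median depths ran from 1599.5 to 2149.5 UMIs over the SAP libraries and from 1637 to 2125 over the CON libraries. In T-like nuclei the thinned shares were 0.116%, 0% and 2.31% in CON and 4.72%, 3.73% and 2.65% in SAP, at median depths of 1565 to 2813 UMIs. The 0 in CON_2 was 0 of 261 nuclei, which allows a share of up to 1.15%, and the share of 0.697% among its enterocyte-like nuclei could not be told from that background at this depth. The thinned share in CON_2 was 0.183% in 2190 stem/TA-like nuclei. The enterocyte-like level of 4.27 CPM was 2.71 times the 1.57 CPM of all nuclei outside the class. In the other 5 libraries the enterocyte-like share was higher than the T-like share. Their 95% exact binomial intervals did not overlap, as in SAP_1 with 12.3% to 16.9% against 1.55% to 10.7%, and they cover counting error only.

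The ratio of the pair of cubam genes was library-specific too. Per 100 Amn UMIs, enterocyte-like nuclei held 12.7, 6.72 and 40.4 Cubn UMIs in CON_1 to CON_3 and 71.8, 30.2 and 43.2 in SAP_1 to SAP_3. Lymphocyte nuclei held 10.9, 0 and 40.2 in CON and 64.7, 21.4 and 68.1 in SAP. The values of both kinds of nuclei lay close together in CON_1, CON_3 and SAP_1, but the lymphocyte ratios rested on few UMIs. For Cubn and Amn these were 7 and 64, 0 and 7, and 35 and 87 in CON_1 to CON_3. In SAP_1 to SAP_3 they were 11 and 17, 30 and 140, and 98 and 144.

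**Figure D2:**
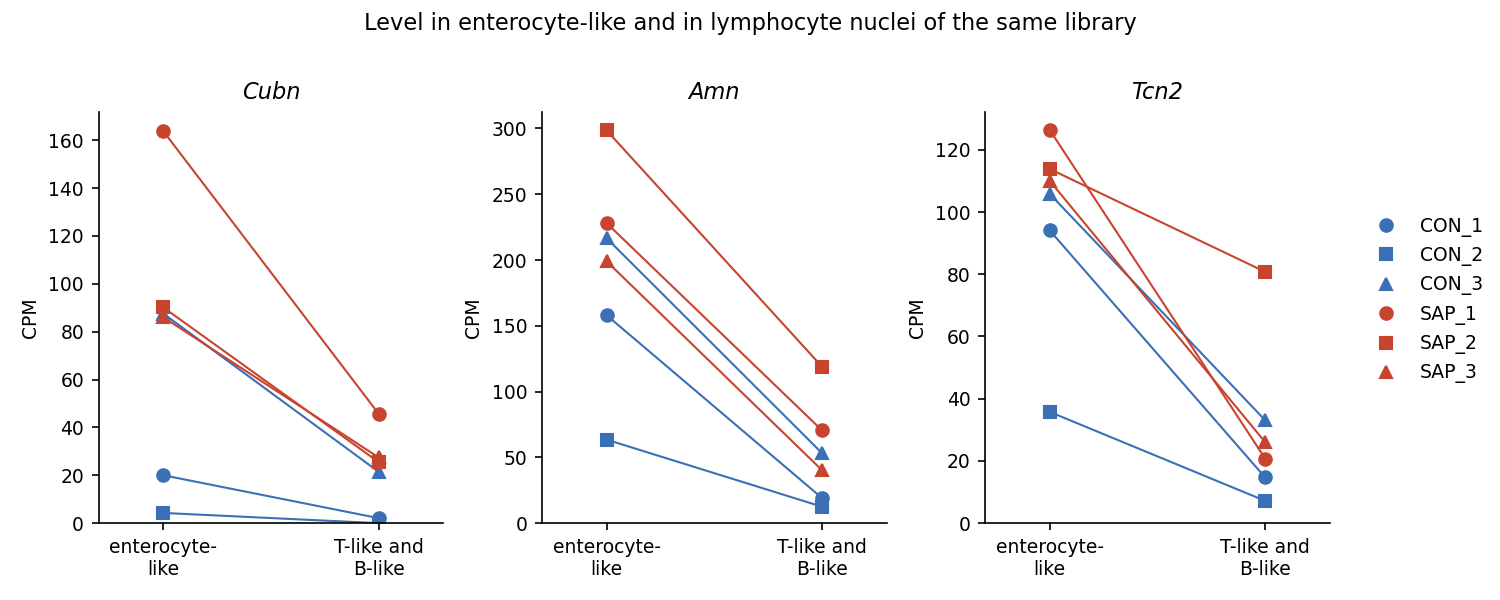
CPM (y axes) of Cubn, Amn and Tcn2 in enterocyte-like nuclei and in T-like and B-like nuclei together (x axes), with 1 line per library, blue for CON and red for SAP. Every line falls, and for Cubn the lymphocyte level runs from 0 in CON_2 to 45.7 CPM in SAP_1, following the enterocyte-like level of 4.27 to 164 CPM.

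Within the enterocyte-like class the receptor genes were read along the villus, on whose upper part absorptive cells mature. A score of 7 tip landmarks (such as Apoa4, Ada and Nt5e) less 5 base landmarks (such as Pigr and Ccl25) split the nuclei into a lower, a middle and an upper part of 2637, 2823 and 2952 nuclei. The split was uneven between libraries. The lower part held 920, 326 and 315 nuclei in CON and 283, 527 and 266 in SAP. The upper part held 127, 230 and 526 nuclei in CON and 350, 1185 and 534 in SAP. The score is a range and not a cell type, 12.0% of nuclei lay near a limit, and the 128 nuclei with a score of 0 fell into the middle part. Cubn in the lower part was at 13.0, 3.15 and 52.0 CPM in CON and 130, 63.3 and 79.2 CPM in SAP, and in the upper part at 71.5, 2.48 and 122 CPM in CON and 164, 121 and 102 CPM in SAP. The upper part was the higher in 5 of 6 libraries, by 1.26 to 5.52 times, and CON_2 was the exception with 0.787. The 5.52 was that of CON_1, with 127 nuclei in its upper part, and CON_2 had 8 Cubn UMIs in the whole class. Amn was higher in the upper part in 6 of 6 libraries, by 1.08 to 1.41 times, and Tcn2 in 4 of 6, with ratios of 0.8999 to 1.86. Neither mean rose steadily, since over the lower, middle and upper parts Amn had 180, 175 and 228 CPM. For Tcn2 these means were 87.2, 79.2 and 116 CPM. The mean of Cubn was higher in SAP in the 3 parts, at 22.7 ± 25.8 CPM (SD, n = 3) in CON against 90.9 ± 35.0 CPM in the lower part, 41.6 ± 38.0 against 113 ± 72.1 CPM in the middle part and 65.3 ± 60.0 against 129 ± 31.6 CPM in the upper part. The groups overlapped in the middle part, where CON_3 with 81.7 CPM lay above SAP_2 and SAP_3, and in the upper part, where CON_3 also lay above both. They did not overlap in the lower part. In the whole class, 6.44% of all genes tested had every SAP library above every CON library after TMM scaling. That share was not computed for the parts, and no test was made within them.

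**Figure D3:**
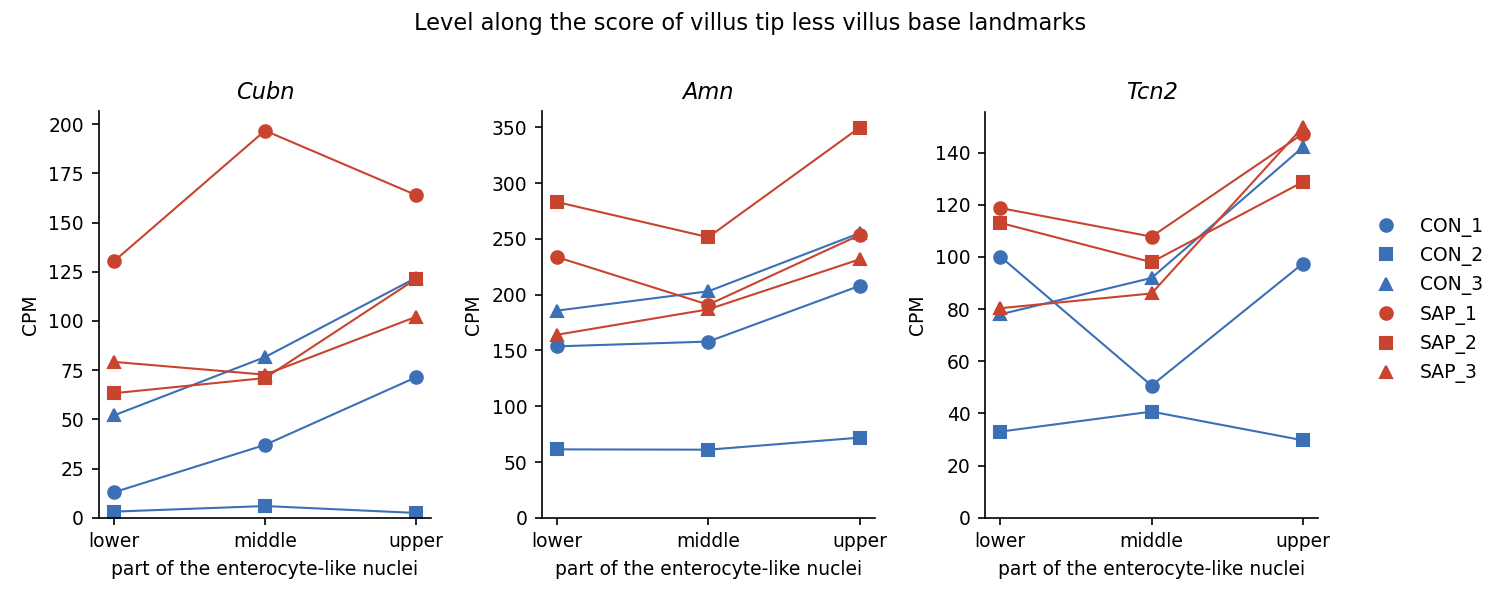
CPM (y axes) of Cubn, Amn and Tcn2 in the lower, middle and upper parts of the enterocyte-like nuclei (x axes), with 1 line per library, blue for CON and red for SAP. The upper part lies above the lower part in 5 of 6 libraries for Cubn and in 6 of 6 for Amn, and CON_2 is the lowest library in each part for each gene.

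Nuclei with a Cubn UMI more often held an Amn UMI than other enterocyte-like nuclei of the same library, at equal depth. Among thinned nuclei with Cubn, 29.0%, 42.9% and 30.6% also held Amn in CON_1 to CON_3, against 16.3%, 7.11% and 21.7% of the nuclei without Cubn. In SAP_1 to SAP_3 the shares were 35.3%, 35.5% and 20.7% against 18.3%, 30.8% and 20.5%. The direction was the same in 6 libraries, but CON_2 had 7 nuclei with Cubn and SAP_3 differed by little. These are descriptions within libraries, since nuclei are not replicates.

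The study compared SAP with CON, and the question here was whether the B12 route differed in the ileum 24 h after pancreatitis. In enterocyte-like nuclei the mean of Cubn was 113 ± 43.7 CPM (SD, n = 3) in SAP and 37.3 ± 44.2 CPM in CON, a fitted log2 fold change of 1.68 with a standard error of 0.85. It did not pass the threshold (edgeR quasi-likelihood test, Benjamini-Hochberg adjusted p = 0.661 over 13142 genes). Amn had a fitted log2 fold change of 0.71 (SE 0.47, edgeR adjusted p = 0.741), Tcn2 of 0.53 (SE 0.45, edgeR adjusted p = 0.816) and Cd320 of -0.44 (SE 0.64, edgeR adjusted p = 0.9005). Lrp2 and Dab2 did not pass the filter on low counts. A call needed both an adjusted p below 0.05 and a log2 fold change of 0.5 or more in either direction. By that rule 0 of the 4 genes tested were called, and of all genes 0% were called in that class. At an unadjusted p under 0.05 there were 1061 genes in that class, none of them a B12 gene, and DESeq2 called 43 genes.

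After TMM scaling each of the 4 genes overlapped between the groups. Of these 0 had every SAP library above every CON library, against 6.44% of all genes tested, and 0 had every SAP library below, against 7.64%. Sums over all nuclei gave Cubn at 4.35, 2.02 and 32.3 CPM in CON and 68.5, 58.0 and 31.1 CPM in SAP (log2 fold change 2.30, SE 0.87, edgeR adjusted p = 0.558). In such sums more enterocytes and more transcript per enterocyte cannot be told apart. Over all epithelial nuclei and all nuclei together 0 of 12 tests of the 6 genes were called, against 0% of all tests. Cubn, Amn and Tcn2 had an unadjusted p under 0.05 (edgeR) in both sums, and Lrp2, Dab2 and Cd320 in neither. So had 1877 of 17469 genes over all epithelial nuclei and 1618 of 19187 genes over all nuclei.

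**Figure D4:**
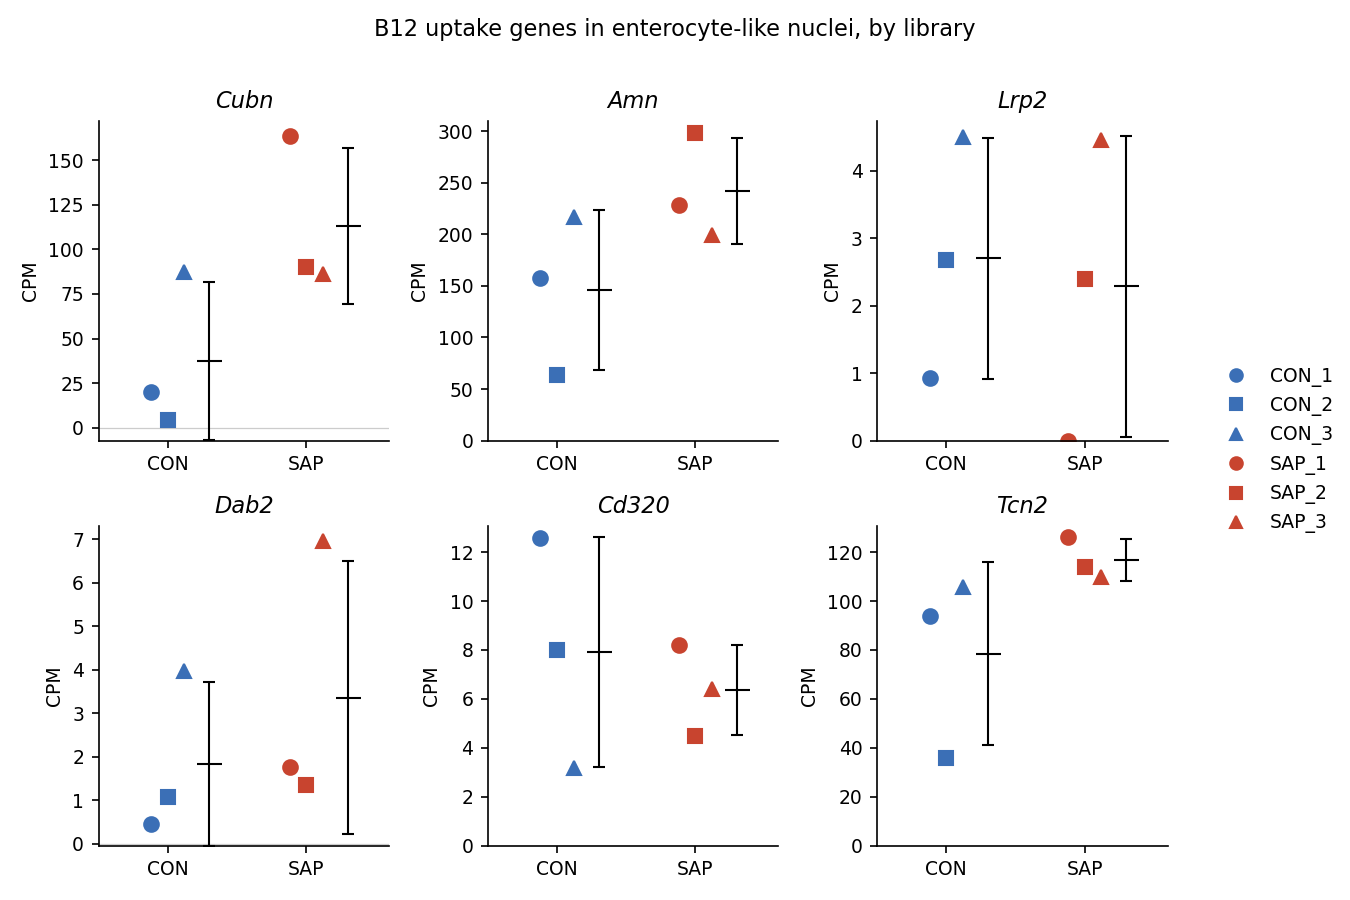
CPM (y axes, 1 scale per gene) of the 6 genes in enterocyte-like nuclei of CON (blue) and SAP (red), with a point per library and the mean ± SD of the 3 libraries in black. Cubn in CON runs from 4.27 to 87.6 CPM and in SAP from 86.0 to 164 CPM, while Lrp2 and Dab2 stay under 7 CPM.

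The spread among the control rats was the widest part of the Cubn result. After TMM scaling Cubn stood at 25.8, 3.59 and 79.9 scaled CPM in CON and 189, 91.3 and 78.4 in SAP. On the scale of log2(scaled CPM + 1) the SD of Cubn over the 3 CON libraries was 2.09, higher than for 99.7% of the 13142 genes, whose median was 0.390. The highest CON library was 22.2-fold above the lowest, while the SAP libraries lay within 2.41-fold (SD 0.672, higher than for 82.2% of genes). Amn and Tcn2 showed the same order on a smaller scale, with SDs of 1.09 and 1.06 in CON and 0.379 and 0.270 in SAP. CON_2 was the lowest library for Cubn, Amn and Tcn2, and for Cubn also CON_1 was low.

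Several measures also differed between these libraries. The median mitochondrial share of passing nuclei was 0.700%, 0.125% and 0.218% in CON_1 to CON_3 and 1.84%, 1.29% and 0.387% in SAP_1 to SAP_3. Its part in the Cubn values was not tested. CON_2, the lowest for Cubn, and SAP_1, the highest for Cubn, were the libraries with barcodes under 1000 UMIs. Between them Cubn differed by 5.26 on the log2 scale, with no replicate. Among the other libraries, 2 per group, the means were 53.8 and 88.1 CPM for CON and SAP, a log2 ratio of 0.71. There the log2 ratio was 0.41 for Amn and 0.16 for Tcn2. With the presence of such barcodes as a covariate the fitted log2 fold change was 1.88 for Cubn (SE 1.06, edgeR adjusted p = 0.757) and 0.91 for Amn (SE 0.46, edgeR adjusted p = 0.722). The cluster led by tip genes made up 26.5%, 23.3% and 32.8% of enterocyte-like nuclei in CON and 36.6%, 38.0% and 37.6% in SAP. Within that cluster Cubn was at 48.4, 7.18 and 111 CPM in CON and 202, 138 and 88.3 CPM in SAP, so the groups overlapped there too. Within the largest enterocyte-like cluster, led by Slc5a12 and Si, it was at 10.8, 3.36 and 58.0 CPM in CON and 132, 63.7 and 82.2 CPM in SAP, and the groups did not overlap (log2 fold change 1.94, SE 0.85, edgeR adjusted p = 0.528). Of all genes tested in the largest cluster, 7.26% had every SAP library above every CON library after TMM scaling. In the cluster led by Fabp6 and Slc51b it was at 4.98, 3.75 and 144 CPM in CON against 168, 78.6 and 92.6 CPM in SAP, with CON_3 above SAP_2 and SAP_3 (log2 fold change 1.22, SE 1.01, edgeR adjusted p = 0.99995). The part of these cluster shares in the result was not tested. In the 3 enterocyte-like clusters taken apart, 0 tests of the B12 genes were called, against 0% of all tests.

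Ileal markers differed between the control rats as well, in another order. CON_1 had the highest level of 5 of the 6 ileal genes measured, the carriers and sensors of bile acids. Fabp6, the ileal bile acid binding protein, was at 12728.5, 557 and 2113 scaled CPM in CON and 1463, 960 and 1591 in SAP. Its log2 fold change was -1.94 (SE 0.97, edgeR adjusted p = 0.655). Fgf19, an ileal hormone that restrains bile acid synthesis in the liver, was at 210, 0.449 and 4.10 scaled CPM in CON and 4.72, 7.29 and 4.06 in SAP (log2 fold change -3.69, SE 1.65, edgeR adjusted p = 0.630). CON_1 was thus high in these genes and low in Cubn, and CON_2 was the lowest in both Fabp6 and Cubn. Of the 6 ileal genes 5 had a fitted log2 fold change below 0, with a median of -1.19, and 0 were called. That sign rested on CON_1, since without it 6 of 6 were above 0, with a median of 0.42. Leaving out libraries for the lists was a choice made after seeing the data.

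The direction of the cubam genes was the same in the classes that are not enterocyte-like. Amn passed the filter in 11 of the 14 other classes fitted and had a log2 fold change above 0 in each of them, from 1.46 to 2.13. The lowest adjusted p was 0.242 (edgeR), in SMC-like nuclei. Cubn was above 0 in 6 of 6 classes (0.75 to 2.29), and Tcn2 in 9 of 9 (0.30 to 1.58), with a lowest adjusted p of 0.264 for both, in unnamed cluster 3. Cd320 was below 0 in 4 of 4 classes, from -0.89 to -0.26, and Dab2 was above 0 in 3 of 4. In these classes 0 of 34 tests were called, against 0.016% of all tests. The unadjusted p was under 0.05 (edgeR) in 11 of 11 classes for Amn, 6 of 9 for Tcn2 and 2 of 6 for Cubn. It was so in 0 of 4 for Cd320 and 0 of 4 for Dab2. Among all genes that level was reached by 1421 of 10632 in cluster 3 and by 213 of 4687 in endothelial-like nuclei.

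Of the 34 tests, 14 had every SAP library above every CON library after scaling, against a background of 5.79%, and 0 had every SAP library below, against 7.47%. The 14 were 5 of Amn, 5 of Tcn2, 3 of Cubn and 1 of Dab2, the last in stem/TA-like nuclei from 37 UMIs. The genes were listed with values of SAP against CON known, and a gene entered a class only where it passed the filter on low counts. The 14 of 34 and the counts by class above are therefore a description and support no difference on their own. Amn in SMC-like nuclei was at 19.0, 7.26 and 50.5 CPM in CON and at 123, 113 and 52.2 CPM in SAP, so SAP_3 lay close to CON_3. Cubn in cluster 3 was at 3.31, 1.87 and 14.2 CPM in CON and at 31.1, 28.8 and 21.2 CPM in SAP. These counts stand beside the lymphocyte levels given above, which moved with the enterocyte-like levels of the same libraries, and beside the share of enterocyte-like nuclei, which was higher in SAP_1 and SAP_2. The part of free RNA in them was not tested. Tests of 1 gene in several classes share their libraries and are not independent of each other.

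Genes that act after uptake of the vitamin were read in enterocyte-like nuclei, where 0% of all genes were called. The list of intracellular B12 handling, from lysosomal export to the enzymes that use the vitamin, had 12 of 13 genes tested, with 4 above and 8 below 0 and 0 called. Its median log2 fold change was -0.08, and that of all genes tested was -0.00051. Mmachc, which strips the vitamin of its upper ligand, was at 3.60, 5.39 and 3.38 scaled CPM in CON and 2.70, 2.43 and 1.78 in SAP (log2 fold change -0.84, SE 0.49, edgeR adjusted p = 0.705). Mtr, methionine synthase, a B12 enzyme, was at 20.1, 36.8 and 21.7 scaled CPM in CON and 18.2, 13.8 and 17.8 in SAP (log2 fold change -0.66, SE 0.33, edgeR adjusted p = 0.650). For both the SAP libraries were below the CON libraries without overlap, the side on which 7.64% of all genes lay. Mmachc reached at most 5.39 scaled CPM, so its gap rested on few UMIs. Cblif, the gene of intrinsic factor, did not pass the filter.

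Folate enters the same cycle as B12 at methionine synthase, and its list had 7 of 11 genes above 0, 0 called and a median of 0.31. Slc19a1, the reduced folate carrier, was at 27.6, 23.8 and 30.9 scaled CPM in CON and 52.6, 76.7 and 35.8 in SAP (log2 fold change 1.00, SE 0.32, edgeR adjusted p = 0.599). Ggh, a lysosomal enzyme that trims folate chains, was at 18.3, 4.49 and 20.5 scaled CPM in CON and 35.1, 24.1 and 42.4 in SAP (log2 fold change 1.20, SE 0.51, edgeR adjusted p = 0.614). Neither gene overlapped between the groups, as was the case for 3 of the 11 listed genes, Mthfd2 the other, each higher in SAP, and on that side lay 6.44% of all genes. The carriers of other water-soluble vitamins had 5 of 9 genes above 0, 0 called and a median of 0.04. Slc23a2, a vitamin C carrier, had a log2 fold change of -0.61 (SE 0.28, edgeR adjusted p = 0.637).

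The uptake machinery that cubam uses showed no common direction. Of 23 genes of apical endocytosis, clathrin, its adaptors and recycling factors among them, 13 were above 0 and 10 below, with 0 called and a median of 0.13. Clcn5, an endosomal chloride exchanger, had the list's largest absolute log2 fold change, -0.91 (SE 0.33, edgeR adjusted p = 0.599), and Clta, a clathrin light chain, had 0.53 (SE 0.49, edgeR adjusted p = 0.831). The LDL receptor family, to which Lrp2 belongs, had 7 of 13 genes below 0, with a median of -0.49 and 0 called. Without CON_1 the median was -0.0071, again with 7 of 13 below 0, so its size rested on that library. In 5 of the 13 every SAP library was below every CON library, against 7.64% of all genes, and 0 were above, against 6.44%. Lrp8, a receptor of apolipoprotein E and reelin, was at 15.6, 24.7 and 12.8 scaled CPM in CON and 5.40, 3.34 and 8.12 in SAP (log2 fold change -1.65, SE 0.45, edgeR adjusted p = 0.599). Lrp12 had a log2 fold change of -1.46 (SE 0.43, edgeR adjusted p = 0.599).

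Tip genes had the sign of Cubn, and base genes the opposite sign while CON_1 was included. All 7 tip landmarks tested were above 0, with a median of 0.82, all 5 base landmarks were below 0, with a median of -0.61, and 0 of either were called. Without CON_1 the base landmarks had 3 of 5 above 0 and a median of 0.06, and the tip landmarks had a median of 0.81 with 7 of 7 above 0. Creb3l3, a factor of lipid genes, was at 70.8, 7.18 and 216 scaled CPM in CON and 561, 235 and 328 in SAP, the same order of the CON libraries as for Cubn (log2 fold change 1.93, SE 0.93, edgeR adjusted p = 0.645). Apoa4, an apolipoprotein of chylomicrons, was at 179, 20.2 and 405 scaled CPM in CON and 1376, 250 and 603 in SAP (log2 fold change 1.88, SE 0.97, edgeR adjusted p = 0.672). Pigr, the carrier of IgA, had a log2 fold change of -0.92 (SE 0.57, edgeR adjusted p = 0.727) and Ccl25, a chemokine, of -0.71 (SE 0.65, edgeR adjusted p = 0.831). Of 16 regulators of enterocyte genes 11 were above 0, with a median of 0.10 and 0 called. Prdm1 had a log2 fold change of 1.19 (SE 0.45, edgeR adjusted p = 0.599) and Klf4, also a tip landmark, of 0.82 (SE 0.30, edgeR adjusted p = 0.599), both factors of differentiation. Whether villus position has a part in the Cubn values was not tested.

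**Figure D5:**
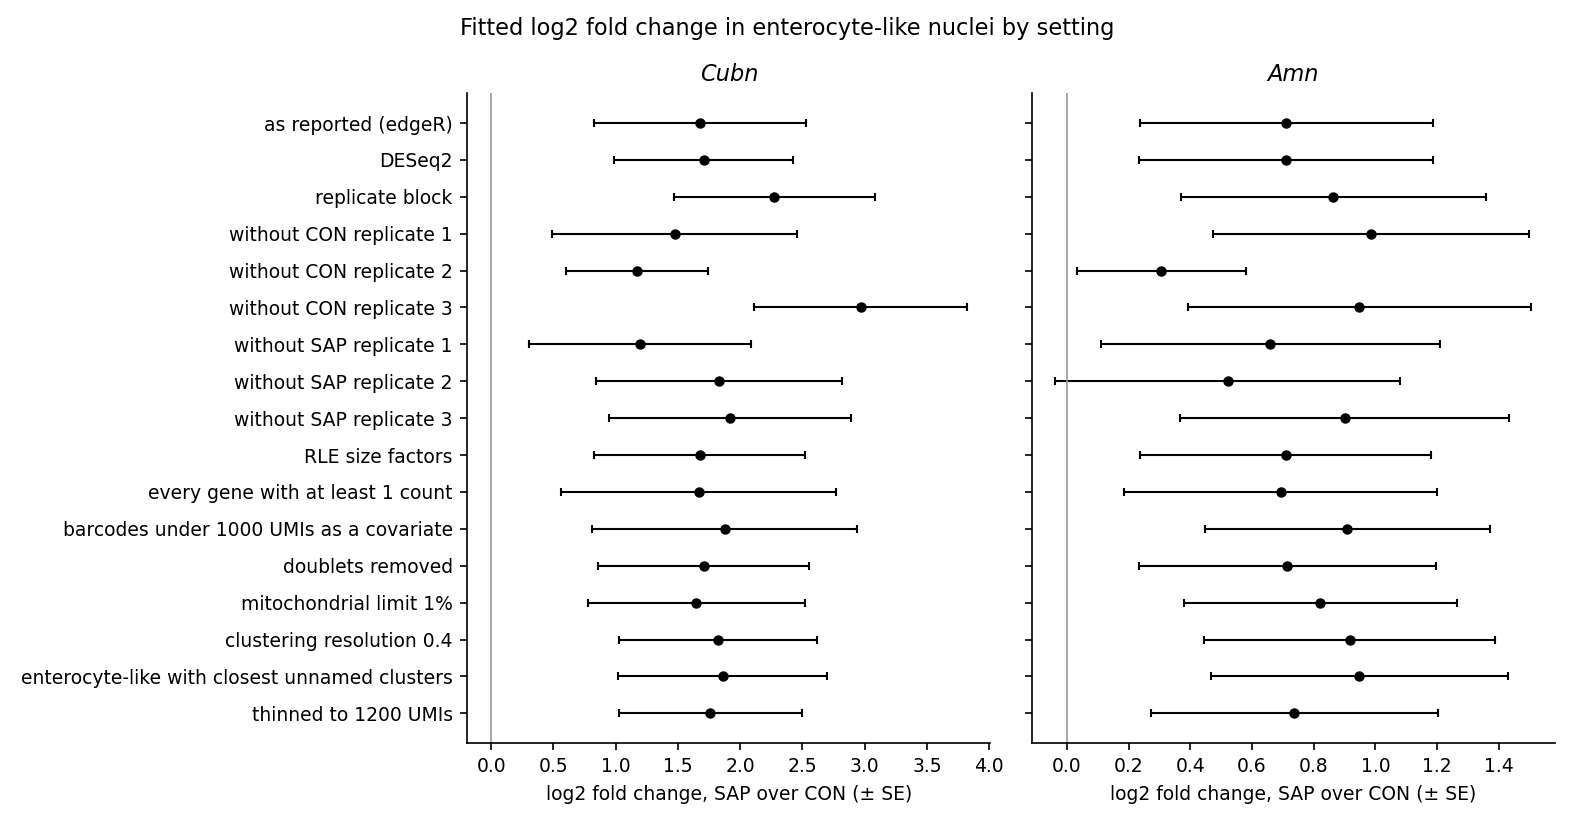
Fitted log2 fold change of SAP over CON (x axes, point ± SE) of Cubn and Amn in enterocyte-like nuclei under the reported fit and each other setting (y axis). Cubn stays above 0 throughout, from 1.17 without CON_2 to 2.97 without CON_3, and Amn from 0.31 to 0.99.

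The genes most like Cubn and Amn over the cell classes were ranked by Pearson correlation of log2(CPM + 1), on the means of 20 classes and for 17181 genes with at least 10 CPM in a class. The class means share their 6 libraries, so the correlations are a description. Closest to Cubn were Chp2 (r = 0.836), LOC102554372 (r = 0.832), Trpm6 (r = 0.832), LOC108351510 (r = 0.831) and Cdr2 (r = 0.815). Trpm6, a magnesium channel of the brush border, and Cdr2 had their highest mean in unnamed cluster 24. Chp2, LOC102554372 and LOC108351510 had theirs in enterocyte-like nuclei. Among the closest to Amn were Abcg2 (r = 0.894), Clca4 (r = 0.889), Clec2e (r = 0.883) and Ptprh (r = 0.881), of which Abcg2 is an efflux pump. Cubn and Amn were less like each other, with r = 0.424 and Amn in place 1415 of the Cubn ranking. When only the 15 classes with at least 10 nuclei in every library were kept, a choice made after seeing the data, r was 0.795 and Amn stood in place 99. The leading gene was then RGD1565410 (r = 0.973) for Cubn and LOC120093685 (r = 0.941) for Amn, and of the first 5 genes for Cubn 0 were shared with the ranking over 20 classes.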

How the data were processed

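Nuclei of ileum were isolated, captured in droplets with the DNBelab C kit and sequenced. Per the labels the build was mRatBN7.2 and Seurat 4.3.0 was used, and the paper names dnbc4tools for counting. The authors deposited whole UMI counts per gene and barcode without normalization. Here nuclei were filtered by the study's limits (1200 UMIs, 500 genes, 5% mitochondrial UMIs), and log-normalized values of 2000 variable genes without the B12 genes were clustered (scanpy 1.11.5, 30 components, Harmony re-implemented in numpy, Leiden at 0.8). Cd74 and genes whose names begin with Defa, RT1, Reg3 or Mt- were left out of the variable genes too. Leiden at 0.8 gave 20 clusters, and 3 with mixed marker scores were clustered again at 0.3, which gave the 25 clusters used. Scrublet's automatic threshold marked 0 doublets, so doublets were kept, and the top 5% per library (2048) were removed as an alternative. Clusters were named where a marker score reached 0.5 and led the next by 0.8. Barcode names recur between libraries (701 to 7479 shared) as running names and identify no cell. Counts were summed per library and class and tested with edgeR 4.0.16 under R 4.3.3 (filterByExpr, TMM, robust quasi-likelihood fit, Benjamini-Hochberg over all genes tested) in classes with 10 or more nuclei in each library. Scaled CPM means CPM after TMM. DESeq2 1.42.0 was an alternative. The scripts were checked on simulated data.

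The members and lists were chosen with earlier results of these data known. Named from the lists are the 2 genes with the largest change per list, and for Cubn and Amn the 5 genes most like each over the classes, of which 1 is not reported here. Pairing by replicate number was checked in enterocyte-like nuclei, from the correlation across genes of the deviations from group means. The correlations were 0.513, 0.122 and 0.378, against -0.425 to 0.0289 for other pairs. The labels and the paper's text give no reason for a pairing. In goblet-like nuclei they were 0.424, 0.0647 and 0.240, against -0.410 to 0.186 for other pairs. Over all nuclei they were 0.635, 0.232 and 0.474, against -0.630 to 0.0506 for other pairs. Libraries of the same number were thus more alike there and in enterocyte-like nuclei, and less clearly so in goblet-like nuclei. Since no source states a pairing, the reported fits were unpaired, and the replicate number was used as a block in an alternative only. No sample field used here separates the 6 libraries by batch. Nothing says that more than 1 sample was taken per rat. The p-values measure the spread between libraries, in which differences between rats and between preparations cannot be told apart.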

Additional observations from a re-analysis of the deposited data

How the results depend on the processing

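With the replicate number as a block the log2 fold change of Cubn in enterocyte-like nuclei was 2.27 (edgeR adjusted p = 0.410) and that of Amn 0.86 (edgeR adjusted p = 0.548), and the block changed no call of a B12 gene. Leaving out 1 library at a time moved Cubn from 1.17 (without CON_2) to 2.97 (without CON_3) and Amn from 0.31 (without CON_2) to 0.99 (without CON_1). Over all alternatives with a test the adjusted p ran from 0.236 to 0.999 for Cubn and from 0.496 to 0.999 for Amn, and no value changed sign. The limit of 1% mitochondrial UMIs kept only 74 of the 940 enterocyte-like nuclei of SAP_1. Within the libraries that list barcodes under 1000 UMIs the log2 ratio was 5.26 for Cubn and 1.84 for Amn, and within the others 0.71 and 0.41.

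Genes called in enterocyte-like nuclei, 0 as reported, numbered 43 with DESeq2, 30 with every gene of at least 1 count, 1 with at most 1% mitochondrial UMIs, 1 at a clustering resolution of 0.4, 1 with nuclei thinned to 1200 UMIs, and 0 to 1 with a library left out. The cause was not tested. No B12 gene was called in another class under DESeq2, the block or a library left out (0 to 0). Calls of listed genes were also counted in the fits other than that of the whole enterocyte-like class. These were other classes, single enterocyte-like clusters, all epithelial nuclei and all nuclei. The calls numbered 11 with DESeq2, of 4 genes, 1 with the block and 0 to 9 with a library left out, namely 9 without CON_3 and 1 without SAP_3. With DESeq2, all epithelial nuclei had 3 of 104 listed genes called, against 268 of 27500 genes. All nuclei had 3 of 104, against 192 of 28135. Cluster 3 had 1 of 103, against 182 of 23574, and B-like nuclei 0 of 103, against 1 of 23715. Without CON_3, cluster 3 had 1 of 90, against 6 of 10669. The share pooled over these fits was not computed, and the lists were chosen with earlier results known. The list medians of the carriers of other vitamins and of the regulators, 0.04 and 0.10, were -0.02 and -0.05 without SAP_2. Without thinning, the mean share of enterocyte-like nuclei with a Cubn UMI was 17.4% in SAP and 6.64% in CON, against 11.3% and 3.70% thinned, since deeper nuclei then count. Lrp2 and Dab2, with 58 and 56 UMIs in enterocyte-like nuclei, were too rare for a statement on SAP.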
